A study of Mus musculus with 22 samples.

Results

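The 40 genes described here drive the cell division cycle and DNA replication or are used to mark dividing cells. They were chosen by symbol from a list of cell cycle genes, and all 40 were among the 15725 symbols of the expression table. By role they comprise 16 genes of the G1/S transition and DNA replication, 18 genes of G2/M and mitosis, 4 genes for the D-type cyclins and their kinase partner Cdk4, and 2 genes for inhibitors of cyclin-dependent kinases (CDKs). Transcript levels were measured in 22 RNA sequencing libraries of primary microglia, the macrophages that reside in the brain. These mouse cells were shaken off mixed glia grown for 8 to 10 days from the cortex of C57BL/6J pups 1 to 3 days old. All cultures had been exposed for 24 h to 100 ng/ml lipopolysaccharide (LPS), a bacterial product that activates macrophages, and cultures without it were not analysed here. The LPS+siAtg5 group (n = 5) was transfected for 48 h with 50 nM siRNA against Atg5, whose product is needed to build autophagosomes, and the LPS+dNC group (n = 3) was its transfected control. The LPS+Baf A1 group (n = 5) received 10 nM bafilomycin A1, which blocks the proton pump of the lysosome, and the LPS+CLA group (n = 6) received 50 nM CLA. The LPS group (n = 3) received LPS alone. The labels do not spell out dNC or CLA, and no label says whether replicates were grown as separate cultures. The p-values therefore reflect the spread among these libraries alone, which may be technical.

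In dividing cells, D-type cyclins with Cdk4 start the phosphorylation of the retinoblastoma proteins, which frees E2F transcription factors to switch on genes for DNA synthesis. Genes for mitosis follow later in the cycle, and many carry CCAAT boxes and a short element called the cell cycle genes homology region (CHR) close to their start. The CDK inhibitors encoded by Cdkn1a (p21) and Cdkn1b (p27) hold cells back. Microglia divide in mixed glial cultures in response to colony-stimulating factor 1, and LPS is known to halt the division of macrophages.

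The proximal promoters are shown first, because the G1/S and G2/M genes are set against each other throughout. Promoter windows from RefSeq on GRCm38.p6, from 250 bases before to 50 bases after the transcription start, were matched to 33 of the 40 genes. The 4 G2/M promoters below are those of Top2a (a DNA topoisomerase that untangles chromosomes), Prc1 (a microtubule bundler of the mitotic midzone), Cdk1 (the kinase that starts mitosis) and Bub1b (a spindle checkpoint kinase homologue). Each line gives the 150 bases before the start, 5′ to 3′ on the strand of the gene, and capitals mark letters of the CHR (TTTGAA), the CCAAT box (CCAAT) or the E2F element on either strand.

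Top2a, chr11:99024190-99024339, minus strand: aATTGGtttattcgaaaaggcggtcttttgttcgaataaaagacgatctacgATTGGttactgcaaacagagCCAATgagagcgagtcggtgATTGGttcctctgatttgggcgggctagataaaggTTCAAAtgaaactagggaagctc
Prc1, chr7:80294326-80294475, plus strand: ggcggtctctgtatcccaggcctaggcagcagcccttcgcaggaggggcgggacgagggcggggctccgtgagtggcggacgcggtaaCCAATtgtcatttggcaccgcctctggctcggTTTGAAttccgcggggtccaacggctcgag
Cdk1, chr10:69352913-69353062, minus strand: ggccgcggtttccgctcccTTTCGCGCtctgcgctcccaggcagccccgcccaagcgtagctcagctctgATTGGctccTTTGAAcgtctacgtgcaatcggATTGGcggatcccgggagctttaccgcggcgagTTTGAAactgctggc
Bub1b, chr2:118598061-118598210, plus strand: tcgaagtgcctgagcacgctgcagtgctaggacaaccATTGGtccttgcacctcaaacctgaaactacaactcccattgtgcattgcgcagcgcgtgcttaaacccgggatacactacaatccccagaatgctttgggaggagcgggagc

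The 4 G1/S promoters are those of Rrm2 and Rrm1 (the subunits of ribonucleotide reductase, which makes deoxynucleotides), Cdk2 (the kinase partner of the E-type cyclins) and Mcm6 (a subunit of the replicative helicase). Cdk1 and Mcm6 were added after the motif matches had been seen, as promoters with both kinds of element and with several E2F elements. The other 6 had the smallest adjusted p of their list in LPS+siAtg5 against LPS.

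Rrm2, chr12:24708104-24708253, plus strand: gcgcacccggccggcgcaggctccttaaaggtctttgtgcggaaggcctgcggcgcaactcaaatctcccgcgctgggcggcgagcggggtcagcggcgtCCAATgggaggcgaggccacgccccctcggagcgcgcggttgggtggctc
Rrm1, chr7:102441545-102441694, plus strand: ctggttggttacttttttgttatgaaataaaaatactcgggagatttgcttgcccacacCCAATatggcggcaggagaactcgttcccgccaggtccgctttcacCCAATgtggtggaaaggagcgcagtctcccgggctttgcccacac
Cdk2, chr10:128705052-128705201, minus strand: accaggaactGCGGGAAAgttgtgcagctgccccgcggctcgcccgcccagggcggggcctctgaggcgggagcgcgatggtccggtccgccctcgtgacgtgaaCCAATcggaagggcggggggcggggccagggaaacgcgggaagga
Mcm6, chr1:128359706-128359855, minus strand: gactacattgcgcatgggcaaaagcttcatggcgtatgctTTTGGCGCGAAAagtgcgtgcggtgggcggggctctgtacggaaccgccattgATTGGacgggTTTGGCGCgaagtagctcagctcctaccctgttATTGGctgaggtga

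The E2F letters searched were TTTCCCGC, TTTCGCGC, TTTGCCGC and TTTGGCGC on both strands. They were found in 7 of the 14 G1/S genes with a window, including Mcm6 and Cdk2, in 1 of the 15 G2/M genes, Cdk1, and in 2.26% of all 32851 promoter windows. The CHR letters were found in 11 of the 15 G2/M genes and in 1 of the 14 G1/S genes, Mcm2, against 17.9% of all windows. In Bub1b the CHR letters lay after the start, at positions 41 to 46, outside the printed stretch. CCAAT, the letters of the third element, stood in 93.8% of the G2/M windows, 66.7% of the G1/S windows and 37.4% of all windows. In Mcm6 the run TTTGGCGCGAAA holds 2 overlapping E2F matches, 1 on each strand. A match is a description of these letters and not a measured binding site.

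**Figure D1:**
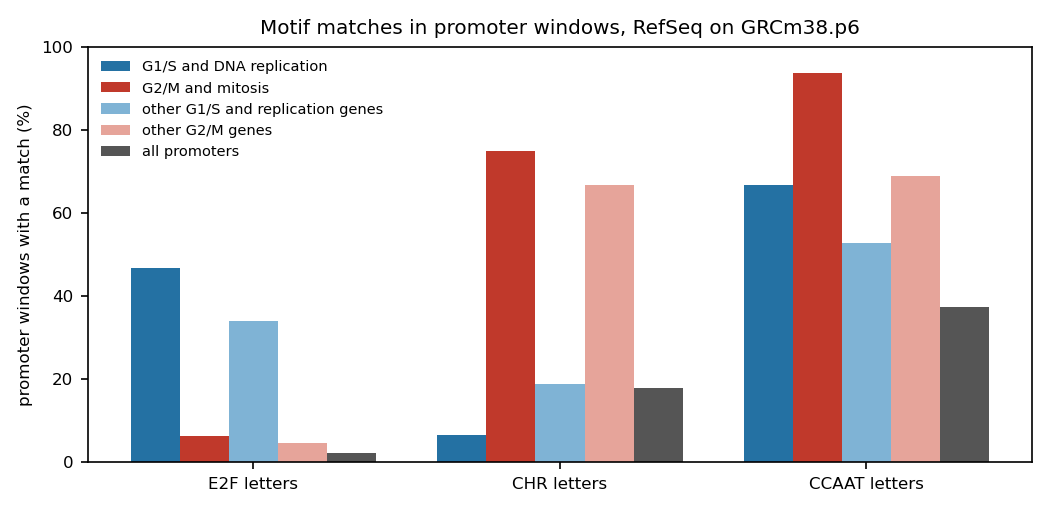
Share of promoter windows (%, vertical axis) with a match to the E2F, CHR or CCAAT letters, for the G1/S and G2/M genes, the other G1/S and G2/M genes and all promoters. The E2F letters stood in 46.7% of G1/S windows and 6.25% of G2/M windows, and the CHR letters in 6.67% of G1/S windows and 75% of G2/M windows.

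The deposited values are FPKM, fragment counts scaled by transcript length and by the mapped fragments of the library, and the depth behind them is unknown. The LPS+siAtg5 libraries differed from all others in their overall distribution, with a median gene at 4.53 to 4.8 FPKM against 2.62 to 3.25 FPKM in the other 17 libraries. LPS+siAtg5 against LPS+dNC therefore carried a median shift of 0.34 on the log2 scale over all genes tested, and the shift was 0.09 or less in LPS+Baf A1 and LPS+CLA against LPS. LPS replicate 3, LPS+dNC replicate 1 and LPS+CLA replicate 2 lay apart from their group mates. Atg5 itself averaged 13.1 ± 0.365 FPKM in LPS+siAtg5 libraries and 22.3 ± 1.67 FPKM in LPS+dNC libraries (SD, n = 5 and n = 3). The 12 microglial markers summed to 5411 to 5564 FPKM in LPS+siAtg5 libraries and 7450 to 8291 FPKM in LPS+dNC libraries, but their levels were uneven. Fcer1g, an Fc receptor chain, differed most in absolute FPKM, averaging 2109 FPKM in LPS+siAtg5 libraries and 5103 FPKM in LPS+dNC libraries. Csf1r, the receptor for colony-stimulating factor 1, averaged 443 FPKM in LPS+siAtg5 libraries and 153 FPKM in LPS+dNC libraries. Of the 12 markers only Fcer1g, Itgam and P2ry12 averaged lower in LPS+siAtg5 than in LPS+dNC libraries. The homeostatic markers P2ry12 (3.15 to 8.49 FPKM) and Tmem119 (1.77 to 5.95 FPKM) were low in all group means. Cx3cr1 averaged 13.9 FPKM in LPS+siAtg5 libraries and 0.177 FPKM in LPS+dNC libraries.

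G2/M genes were low in these libraries, with the highest medians after siRNA against Atg5. Even there those medians lay below the median gene of the same libraries (4.53 to 4.8 FPKM). The median of the 18 G2/M genes in a library was 1.77 to 1.91 FPKM in LPS+siAtg5, 0.3 to 0.4 FPKM in LPS+dNC, 0.49 to 0.83 FPKM in LPS+Baf A1, 0.425 to 0.95 FPKM in LPS+CLA and 0.41 to 0.46 FPKM in LPS libraries. Between 13 and 15 of the 18 reached 1 FPKM in an LPS+siAtg5 library, against 2 or 3 in an LPS+dNC library. The 16 G1/S genes stood higher and varied less between groups, with library medians of 5.86 to 6.73 FPKM in LPS+siAtg5, 3.61 to 4.42 FPKM in LPS+dNC, 4.54 to 5.0 FPKM in LPS+Baf A1, 4.93 to 6.07 FPKM in LPS+CLA and 3.71 to 4.15 FPKM in LPS libraries.

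**Figure D2:**
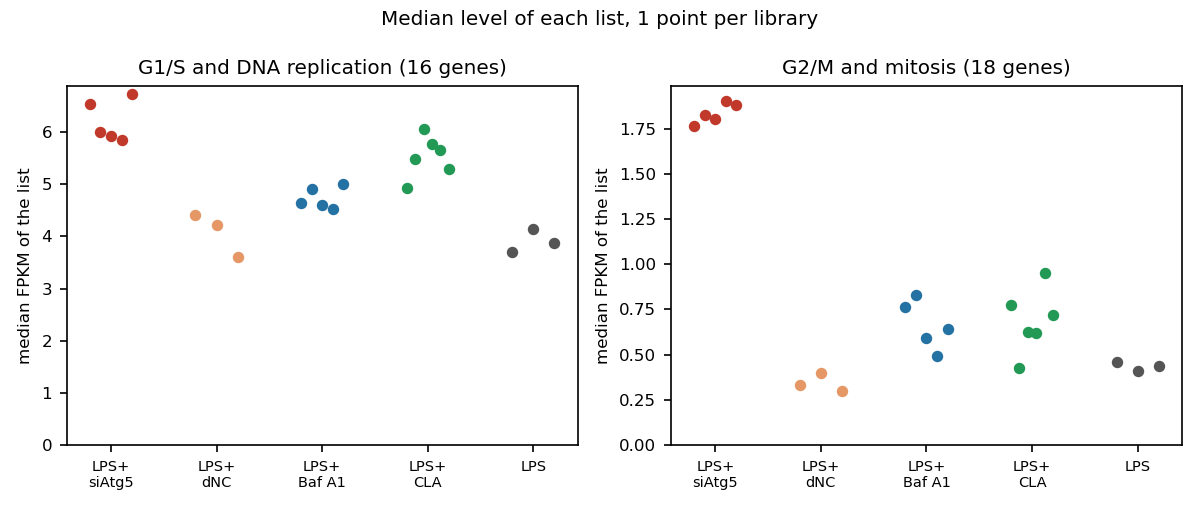
Median FPKM (vertical axes) of the 16 G1/S genes (left) and the 18 G2/M genes (right) in each library, 1 point per library, by group. The 5 LPS+siAtg5 libraries lay at 1.77 to 1.91 FPKM for the G2/M genes and all other libraries at or below 0.95 FPKM.

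The first comparison asked what siRNA against Atg5 changed beside its transfected control. Mitotic genes were higher in LPS+siAtg5 than in LPS+dNC libraries almost throughout the list, with the smallest adjusted p for Top2a, Cdk1 and Prc1, while the G1/S genes split, with the helicase subunits and ribonucleotide reductase higher and Cdt1, E2f1, Tyms and Pcna lower. Differences were tested on log2(FPKM + 1) with limma across all genes and called at an adjusted p under 0.05. Because 7 of the 40 genes reached 1 FPKM in 3 libraries only through the LPS+siAtg5 group, and 5 did not reach it in 3 libraries, the counts are given over all 40 genes with no filter on low values. On that basis 31 genes were called higher, with 54.8% of all 15534 genes called higher, and 5 were called lower, with 18.3% of all genes called lower. Among G2/M genes 17 of 18 were called higher and none lower, with a median log2 change of 0.97, and among G1/S genes 11 of 16 were called higher and 4 lower, with a median of 0.36, against a median of 0.20 over all genes. With the filter of 1 FPKM in 3 libraries, 35 members remained, of which 26 were called higher and 5 lower, beside 59.6% higher and 21.6% lower of 11070 genes. The split depended on scaling. For counts under other scalings, here and below, the share of all genes called is not given. Those counts therefore do not show whether the 40 genes differed from all genes. Over all genes past the filter the median log2 change was 0.06 with median-of-ratios scaling and -0.01 with quantile normalization. Median-of-ratios scaling gave 22 higher and 7 lower, with 13 G2/M genes higher and none lower. Quantile normalization, which removes the overall shift, gave 16 higher and 10 lower, with 7 G2/M genes higher and 1, Aurka, lower, with Bub1b (-0.04) and Ccnb2 (-0.03) turned below 0, and with 6 G1/S genes in each direction.

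Top2a had 4.11, 4.21, 4.03, 4.84 and 3.97 FPKM in LPS+siAtg5 libraries, against 0.4, 0.6 and 0.33 FPKM in LPS+dNC libraries. Cdk1 had 7.71, 8.24, 7.24, 8.71 and 9.27 FPKM with the Atg5 siRNA and 1.2, 0.9 and 0.85 FPKM with dNC. The groups did not overlap for either gene, and the Top2a values of LPS+siAtg5 lay above those of all 17 other libraries. Such separation was common here. Of all 15725 symbols 50.3% lay wholly higher in LPS+siAtg5 than in LPS+dNC libraries and 15.7% wholly lower, beside 77.5% and 12.5% of the 40 genes. The log2 change was 1.86 ± 0.10 for Top2a and 2.22 ± 0.13 for Cdk1 (SE, limma adjusted p = 1.64e-13 and 3.22e-13). Prc1 had 3.31, 3.89, 2.79, 3.02 and 2.98 FPKM in LPS+siAtg5 libraries and 0.36, 0.3 and 0.26 FPKM in LPS+dNC libraries, again without overlap, and changed by 1.68 ± 0.10 on the log2 scale in the fit with no filter, since it reached 1 FPKM in 3 libraries only through LPS+siAtg5 (SE, limma adjusted p = 2.11e-12). Relative to the median shift of 0.34 over the genes past the filter, used for all 3, these changes were 1.52 for Top2a, 1.88 for Cdk1 and 1.34 for Prc1. All 3 promoters printed above hold CHR letters, which were found in 11 of the 15 G2/M genes with a window. Cdk1 was printed after its matches had been seen, and a link between these letters and the changes was not tested.

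Mki67, the gene of the proliferation antigen Ki-67, had 1.79, 1.83, 1.71, 1.52 and 1.7 FPKM in LPS+siAtg5 libraries and 0.31, 0.42 and 0.35 FPKM in LPS+dNC libraries, a change of 0.99 ± 0.10 on the log2 scale (SE, limma adjusted p = 6.31e-09) that was 0.18 and not called under quantile normalization. Its groups did not overlap, although Mki67 in LPS+siAtg5 shared the range of LPS+Baf A1 libraries. Ccnb1, the mitotic cyclin B1, had 2.76, 3.11, 2.49, 2.76 and 2.54 FPKM with the Atg5 siRNA and 0.13, 0.23 and 0.03 FPKM with dNC, a log2 change of 1.72. Ube2c and Cdc20, which act in the ubiquitin ligase that ends mitosis, changed by 1.86 and 1.43. Smaller rises came from Aurkb (0.94), a kinase of chromosome alignment and cytokinesis, from Plk1 (1.04), a mitotic kinase, and from Ccna2 (1.13), cyclin A2. The spindle factor Tpx2 was the G2/M gene that did not pass, at 3.96, 4.56, 4.15, 5.04 and 4.39 FPKM in LPS+siAtg5 libraries against 7.73, 2.86 and 1.9 FPKM in LPS+dNC libraries. There LPS+dNC replicate 1 stood above every LPS+siAtg5 library and the other 2 below.

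Among G1/S genes the largest rise was that of Rrm2, with 4.58, 3.64, 4.21, 3.81 and 4.42 FPKM in LPS+siAtg5 libraries and 0.17, 0.43 and 0.24 FPKM in LPS+dNC libraries. Its partner Rrm1 had 10.43, 10.12, 10.1, 12.49 and 10.95 FPKM with the Atg5 siRNA, against 4.86, 5.33 and 5.59 FPKM with dNC. Both were higher in 5 of 5 libraries, with log2 changes of 2.01 ± 0.12 for Rrm2 and 0.91 ± 0.07 for Rrm1 (SE, limma adjusted p = 3.01e-12 for Rrm2 with no filter and 5.65e-11 for Rrm1). Outside LPS+siAtg5 no library reached 1 FPKM of Rrm2. Mcm3, a subunit of the replicative helicase, had 8.96, 9.01, 9.11, 9.52 and 9.25 FPKM in LPS+siAtg5 libraries and 3.71, 4.66 and 3.7 FPKM in LPS+dNC libraries. Its log2 change was 1.02 ± 0.07 (SE, limma adjusted p = 1.71e-11). Relative to the median shift of the genes past the filter the changes were 1.67 for Rrm2, 0.58 for Rrm1 and 0.68 for Mcm3. All 6 helicase subunits measured, Mcm2 to Mcm7, were called higher, by 0.32 (Mcm4) to 1.24 (Mcm7), but under quantile normalization Mcm4 and Mcm5 turned to -0.17 and -0.10. Mcm2 had 4.35, 3.48, 3.81, 3.65 and 3.83 FPKM in LPS+siAtg5 libraries and 1.19, 1.84 and 1.34 FPKM in LPS+dNC libraries, without overlap.

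Cdt1, which loads the helicase at origins before S phase, had 15.1, 14.66, 13.42, 13.18 and 13.55 FPKM in LPS+siAtg5 libraries, against 22.92, 19.89 and 20.24 FPKM in LPS+dNC libraries. E2f1, the E2F factor itself, had 7.66, 7.14, 7.2, 6.29 and 8.5 FPKM in LPS+siAtg5 libraries, against 11.59, 10.21 and 8.61 FPKM in LPS+dNC libraries. For both, every library with the Atg5 siRNA lay below every dNC library, narrowly so for E2f1. The log2 change was -0.55 ± 0.08 for Cdt1 and -0.41 ± 0.09 for E2f1 (SE, limma adjusted p = 9.92e-07 and 0.000211). Tyms, thymidylate synthase, had 3.77, 3.1, 4.12, 5.42 and 4.21 FPKM with the Atg5 siRNA and 6.21, 6.45 and 6.4 FPKM with dNC, a log2 change of -0.54. Pcna, the sliding clamp of DNA polymerases, had 78.96, 79.51, 79.77, 79.38 and 72.72 FPKM in LPS+siAtg5 libraries and 97.46, 87.26 and 92.02 FPKM in LPS+dNC libraries, a log2 change of -0.24. Cdk2 was called higher by 0.18, a call that ended without LPS+dNC replicate 2 or 3 or without LPS+siAtg5 replicate 1 or 4 and turned to -0.11 with median-of-ratios scaling and to -0.18 with quantile normalization. Ccne1, cyclin E1, did not pass, at 0.17.

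Markers of other glial and brain cells moved with these differences. The summed level of 10 astrocyte markers was 276 to 320.0 FPKM in LPS+siAtg5 libraries and 4.89 to 15.7 FPKM in LPS+dNC libraries, with all 10 called higher. Gjb6 was the astrocyte marker at 0 in every LPS+dNC library. The sum was 45.9 to 56.1 FPKM in LPS+siAtg5 libraries and 1.67 to 11.4 FPKM in LPS+dNC libraries over 6 neuronal markers, and 89.1 to 121 FPKM in LPS+siAtg5 libraries and 3.8 to 13.4 FPKM in LPS+dNC libraries over 7 mesenchymal markers. Over 8 markers of the oligodendrocyte lineage it was 28.1 to 32.4 FPKM in LPS+siAtg5 libraries and 3.63 to 14.4 FPKM in LPS+dNC libraries. Their part in the differences of the cell cycle genes was not tested. In bulk RNA, a change in the number of cells of a type and a change in RNA per cell cannot be told apart.

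**Figure D3:**
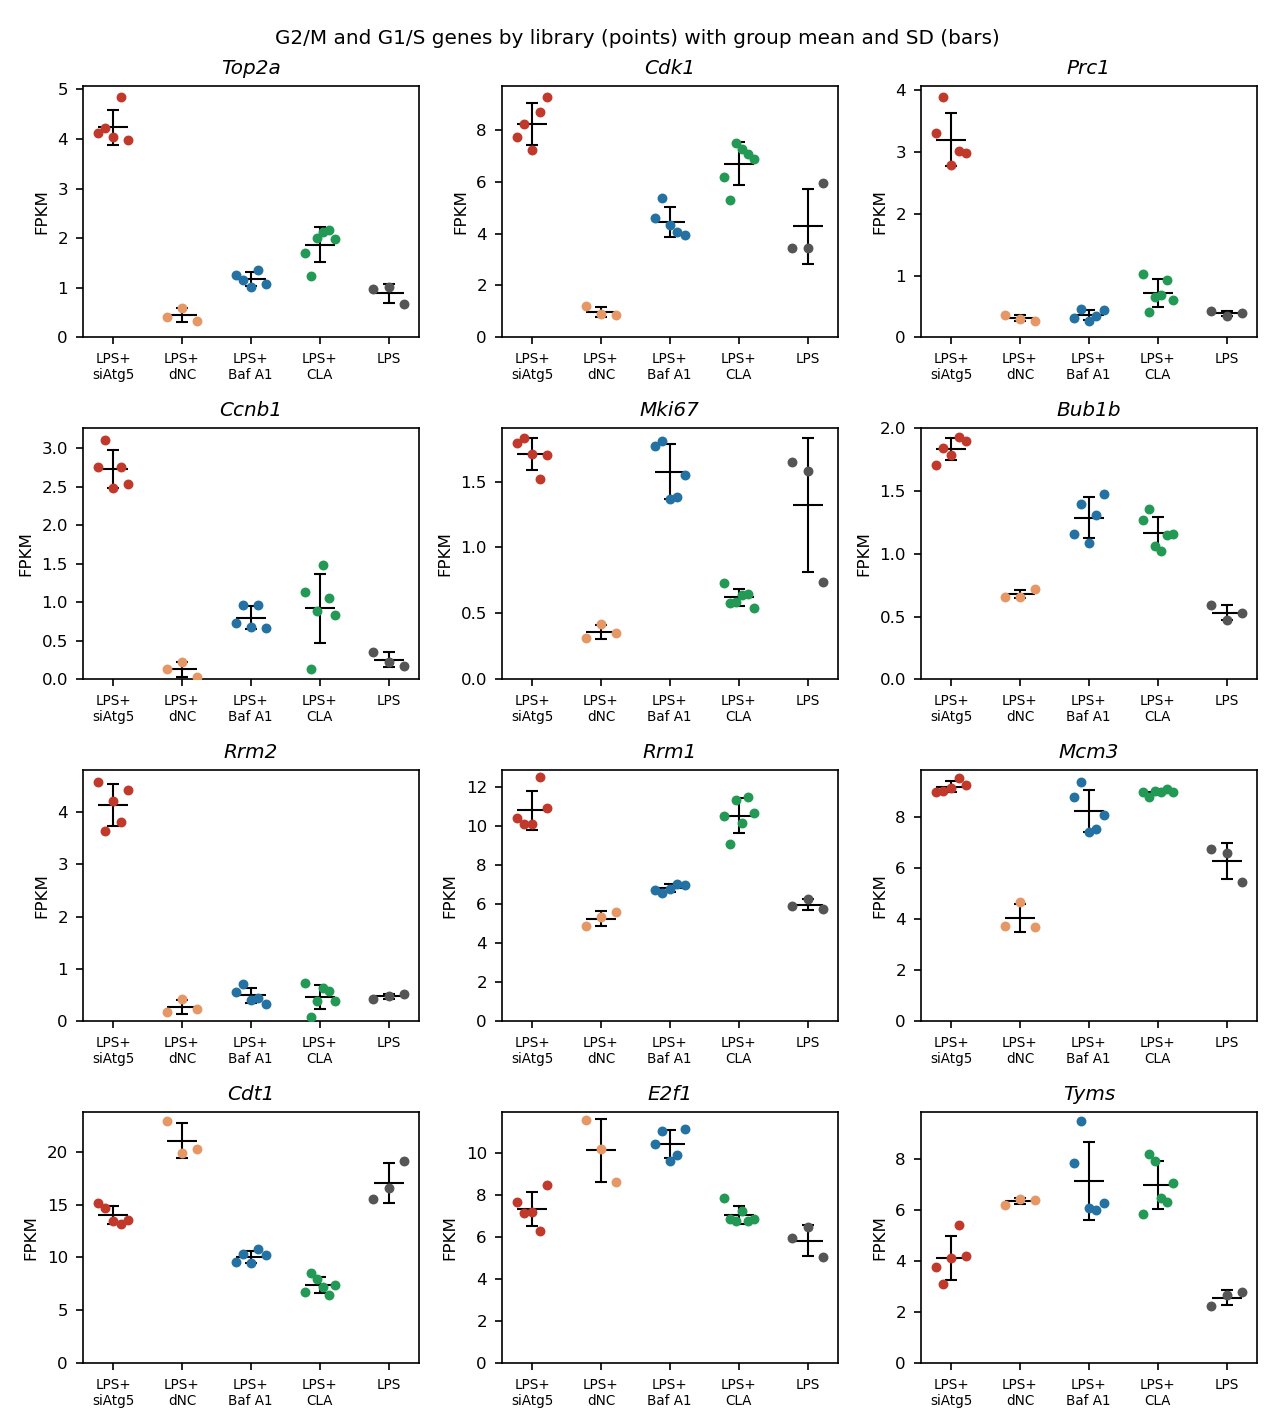
FPKM (vertical axes, each from 0) of 6 G2/M genes and 6 G1/S genes in every library, by group; points are libraries, bars the group mean and SD (n = 5, 3, 5, 6 and 3). Top2a, Prc1, Ccnb1 and Rrm2 were highest in the 5 LPS+siAtg5 libraries, while Cdt1 was highest with dNC and Tyms lowest with LPS alone.

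LPS+dNC was itself set against LPS alone, since it is the base of the siRNA comparison. Mki67, Cdk1 and Top2a were lower in LPS+dNC, by -0.75, -1.38 and -0.39 on the log2 scale (limma adjusted p = 6.51e-06, 2.2e-08 and 0.0065). Cdk1 averaged 0.983 ± 0.189 FPKM in LPS+dNC and 4.28 ± 1.45 FPKM in LPS libraries (SD, n = 3 each). Tyms (1.04), E2f1 (0.70) and Cdk2 (0.64) were higher in LPS+dNC. Of the 35 genes past the filter 9 were called higher and 8 lower, beside 29.0% higher and 28.1% lower of all genes, so the share of members called was near that of all genes. Over all 40 with no filter 9 were called higher and 10 lower, beside 23.6% and 20.3%. LPS+siAtg5 against LPS called 36 of 40 higher and 1 lower with no filter, beside 57.2% and 12% of all genes. Past the filter, which 7 of the 35 genes met only through LPS+siAtg5, 31 were higher and 1 lower, beside 61.2% and 15.6%, and quantile normalization gave 19 higher and 5 lower. Cdt1 was the gene called lower in LPS+siAtg5 against both LPS+dNC and LPS (-0.55 and -0.27). The 2 comparisons share the LPS+siAtg5 libraries. Tyms and E2f1 were lower in LPS+siAtg5 than in LPS+dNC but higher than in LPS, by 0.51 and 0.29, and under quantile normalization these turned to -0.11 and -0.12 against LPS.

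The second comparison asked what bafilomycin A1 changed in LPS-treated microglia. Between LPS+Baf A1 and LPS libraries, G1/S genes differed in both directions and few of the G2/M genes differed. Tyms, E2f1, Cdk2 and Ccne1 were higher with Baf A1, Cdt1, Pcna and Mcm4 lower, and Bub1b, Ccnb1 and Aurkb higher at low levels. Of the 35 genes past the filter 16 were called higher and 4 lower, beside 32.7% and 25.1% of all genes. Over all 40 with no filter these were 13 and 4, beside 23.4% and 19.1%. Among the G1/S genes 6 of 16 were called higher and 3 lower with no filter, and 7 of 14 higher and 4 lower past it. Among the G2/M genes 3 of 18 were called higher and 1, Cenpe (-0.30), lower with no filter, and 5 of 15 higher and none lower past it. Birc5 and Ube2c were called past the filter (0.33 and 0.47) but not with no filter (limma adjusted p = 0.0564 and 0.0594), and Birc5 met the filter only through LPS+siAtg5. The median log2 change past the filter was 0.09 for G1/S genes and 0.16 for G2/M genes, against 0.04 over all genes. Summed markers moved without overlap for 3 other cell types, at 15.8 to 21.3 FPKM in LPS+Baf A1 and 9.74 to 14.5 FPKM in LPS libraries for mesenchymal cells, 16.5 to 19.2 FPKM in LPS+Baf A1 and 7.76 to 12.3 FPKM in LPS libraries for astrocytes, and 6.08 to 9.24 FPKM in LPS+Baf A1 and 10.7 to 14.4 FPKM in LPS libraries for neurons. With no filter 5 of 7 mesenchymal markers were called higher, 3 of 10 astrocyte markers higher and 1 lower, and 3 of 6 neuronal markers lower. Gja1 made up most of the astrocyte sum with Baf A1, averaging 11.2 FPKM in LPS+Baf A1 and 3.37 FPKM in LPS libraries. Slc1a2 (1.35 and 0.29 FPKM) and Aldoc (1.34 and 0.457 FPKM) also averaged higher with Baf A1. Gfap (0.9 and 2.05 FPKM), Aqp4 (0.256 and 0.717 FPKM) and Slc1a3 (1.05 and 1.62 FPKM) averaged lower, so the astrocyte markers were uneven. Their part in these changes was not tested.

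Tyms had 7.85, 9.48, 6.08, 6.02 and 6.27 FPKM in LPS+Baf A1 libraries, against 2.24, 2.69 and 2.8 FPKM in LPS libraries. E2f1 had 10.45, 11.05, 9.62, 9.92 and 11.16 FPKM with Baf A1 and 5.96, 6.49 and 5.05 FPKM with LPS alone. Neither gene's groups overlapped, and the log2 changes were 1.17 ± 0.13 for Tyms and 0.75 ± 0.09 for E2f1 (SE, limma adjusted p = 1.12e-07 and 2.18e-07). Of all 15725 symbols 22.7% lay wholly higher in LPS+Baf A1 than in LPS libraries and 17.1% wholly lower, beside 42.5% and 10% of the 40 genes. Cdk2 had 6.01, 6.65, 6.42, 6.37 and 6.67 FPKM in LPS+Baf A1 libraries and 5.23, 4.63 and 4.08 FPKM in LPS libraries, a log2 change of 0.40. Ccne1 changed by 0.67, Mcm3 by 0.35 and Mcm6 by 0.21. Rrm1 had 6.75, 6.58, 6.79, 7.05 and 6.97 FPKM with Baf A1 and 5.9, 6.27 and 5.73 FPKM with LPS alone. Its groups did not overlap, but the log2 change of 0.17 (limma adjusted p = 0.046) missed the threshold in 11 of the alternatives run, among them leaving out LPS replicate 1 or 3 or LPS+Baf A1 replicate 1, 3, 4 or 5.

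Cdt1 had 9.55, 10.35, 9.46, 10.81 and 10.22 FPKM in LPS+Baf A1 libraries, against 15.48, 16.52 and 19.15 FPKM in LPS libraries. Pcna had 60.77, 60.71, 61.32, 59.91 and 61.02 FPKM with Baf A1 and 81.15, 76.46 and 95.54 FPKM with LPS alone. The treated libraries of both genes lay close together and below every LPS library, with log2 changes of -0.70 ± 0.08 for Cdt1 and -0.46 ± 0.07 for Pcna (SE, limma adjusted p = 9.4e-08 and 4.48e-06). Mcm4 had 2.76, 2.26, 2.48, 3.02 and 2.87 FPKM in LPS+Baf A1 libraries and 3.56, 3.9 and 3.68 FPKM in LPS libraries, again without overlap, and changed by -0.36 (limma adjusted p = 0.000902). Mcm7, most of whose transcript is shared with other genes, changed by -0.29 (limma adjusted p = 0.0406), a call that was lost with no filter (limma adjusted p = 0.0579). Mcm2 had 2.03, 2.12, 2.11, 2.15 and 1.87 FPKM with Baf A1 and 2.85, 2.48 and 2.11 FPKM with LPS alone. Those groups overlapped through LPS replicate 3, and the log2 change of -0.18 passed the threshold without that library, at -0.26, and with median-of-ratios scaling, quantile normalization or array weights, at -0.23 in each.

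Bub1b had 1.16, 1.4, 1.09, 1.31 and 1.48 FPKM in LPS+Baf A1 libraries, against 0.59, 0.47 and 0.53 FPKM in LPS libraries, a change of 0.58 ± 0.07 on the log2 scale (SE, limma adjusted p = 2.21e-07). Ccnb1 had 0.73, 0.96, 0.68, 0.96 and 0.67 FPKM with Baf A1 and 0.36, 0.23 and 0.17 FPKM with LPS alone, a log2 change of 0.52. Aurkb had 1.07, 1.1, 0.67, 0.8 and 1.31 FPKM with Baf A1 and 0.47, 0.56 and 0.43 FPKM with LPS alone, a log2 change of 0.41. None of these 3 genes had overlapping groups. Top2a, Mki67 and Cdk1 did not pass. Top2a had 1.26, 1.16, 1.02, 1.35 and 1.07 FPKM in LPS+Baf A1 libraries and 0.98, 1.01 and 0.67 FPKM in LPS libraries, a log2 change of 0.21 (limma adjusted p = 0.0921) although its groups did not overlap. Mki67 had 1.77, 1.81, 1.37, 1.38 and 1.55 FPKM in LPS+Baf A1 libraries and 1.65, 1.58 and 0.74 FPKM in LPS libraries, and its log2 change of 0.17 turned to -0.03 without LPS replicate 3. Cdk1 had 4.6, 5.36, 4.33, 4.05 and 3.93 FPKM with Baf A1 and 3.44, 3.45 and 5.96 FPKM with LPS alone, and its log2 change of 0.07 became 0.29 (limma adjusted p = 0.0333) without LPS replicate 3.

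The third comparison asked the same of CLA, against the same 3 LPS libraries. Cdk2, Rrm1 and Tyms rose, as did several mitotic genes such as Bub1b, Aurkb, Top2a and Cdk1, while Cdt1 and Mki67 fell. Of the 35 genes past the filter 18 were called higher and 5 lower, beside 40.4% and 22.6% of all genes, and median-of-ratios scaling gave 15 higher and 7 lower. Over all 40 with no filter these were 18 and 7, beside 29.1% and 17.5%. Among G1/S genes 7 of 14 were called higher and 2 lower, with a median log2 change of 0.17. Among G2/M genes 8 of 15 were called higher and 1 lower, with a median of 0.23, against 0.09 over all genes. With no filter 8 of 18 G2/M genes were higher and 3 lower, and Cdc20 lost its call. The summed neuronal markers were 0.79 to 6.78 FPKM in LPS+CLA and 10.7 to 14.4 FPKM in LPS libraries. All 6 were called lower with no filter. The oligodendrocyte lineage sum was 11.5 to 13.1 FPKM in LPS+CLA and 13.3 to 13.8 FPKM in LPS libraries. The microglial sum was 6484 to 6975 FPKM in LPS+CLA and 5906 to 5990 FPKM in LPS libraries. Astrocyte and mesenchymal sums overlapped. The part of these markers in the changes was not tested.

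Cdk2 ranged from 7.22 to 9.37 FPKM in the 6 LPS+CLA libraries, with a median of 8.78, and had 5.23, 4.63 and 4.08 FPKM in LPS libraries. Rrm1 ranged from 9.07 to 11.48 FPKM with CLA, with a median of 10.59, and had 5.9, 6.27 and 5.73 FPKM with LPS alone. Tyms ranged from 5.84 to 8.21 FPKM with CLA, with a median of 6.78, and had 2.24, 2.69 and 2.8 FPKM with LPS alone. The groups of all 3 genes were apart, and the log2 changes were 0.77 ± 0.07 for Cdk2, 0.73 ± 0.07 for Rrm1 and 1.15 ± 0.13 for Tyms (SE, limma adjusted p = 3.04e-09, 4.25e-09 and 5.8e-08). Of all 15725 symbols 23.9% lay wholly higher in LPS+CLA than in LPS libraries and 15.2% wholly lower, beside 32.5% and 17.5% of the 40 genes. E2f1 was called higher by 0.24 (limma adjusted p = 0.0176), which ended without LPS replicate 3 and under both other scalings. The helicase subunits Mcm3 and Mcm6 were called higher (0.46 and 0.42) and the other 4 were not called. Among those, Mcm2 ranged from 2.07 to 3.35 FPKM with CLA, with a median of 2.73, and overlapped the 2.85, 2.48 and 2.11 FPKM of the LPS libraries.

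Cdt1 ranged from 6.42 to 8.5 FPKM in LPS+CLA libraries, with a median of 7.29, against 15.48, 16.52 and 19.15 FPKM in LPS libraries. It was lower in 6 of 6 libraries, with a change of -1.11 ± 0.08 on the log2 scale (SE, limma adjusted p = 1.95e-11). Pcna ranged from 59.51 to 77.0 FPKM with CLA, with a median of 71.6, and had 81.15, 76.46 and 95.54 FPKM with LPS alone. These groups overlapped by 1 library, and the log2 change was -0.25 (limma adjusted p = 0.00193).

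Top2a ranged from 1.23 to 2.16 FPKM in LPS+CLA libraries, with a median of 2.0, against 0.98, 1.01 and 0.67 FPKM in LPS libraries. Mki67 went the other way, at 0.54 to 0.73 FPKM with CLA and a median of 0.615, against 1.65, 1.58 and 0.74 FPKM with LPS alone. Neither gene's groups overlapped, though LPS replicate 3 came within 0.01 FPKM of the highest CLA library for Mki67. The log2 change was 0.60 ± 0.10 for Top2a and -0.49 ± 0.10 for Mki67 (SE, limma adjusted p = 1.65e-05 and 0.000142). Both calls held in all alternatives that tested these genes, which the 5 FPKM filter left out. Bub1b ranged from 1.02 to 1.36 FPKM with CLA, with a median of 1.16, and Aurkb from 0.95 to 2.1 FPKM, with a median of 1.58. In LPS libraries Bub1b had 0.59, 0.47 and 0.53 FPKM and Aurkb 0.47, 0.56 and 0.43 FPKM. The changes were 0.50 for Bub1b and 0.77 for Aurkb on the log2 scale, without overlap. Cdk1 ranged from 5.3 to 7.51 FPKM with CLA, with a median of 6.97, and had 3.44, 3.45 and 5.96 FPKM with LPS alone. It was called higher by 0.57 (limma adjusted p = 0.000354), with LPS replicate 3 inside the CLA range. Cenpe and Kif11, motors of the mitotic spindle that stayed under the filter, were called lower by -0.37 and -0.17 with no filter.

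**Figure D4:**
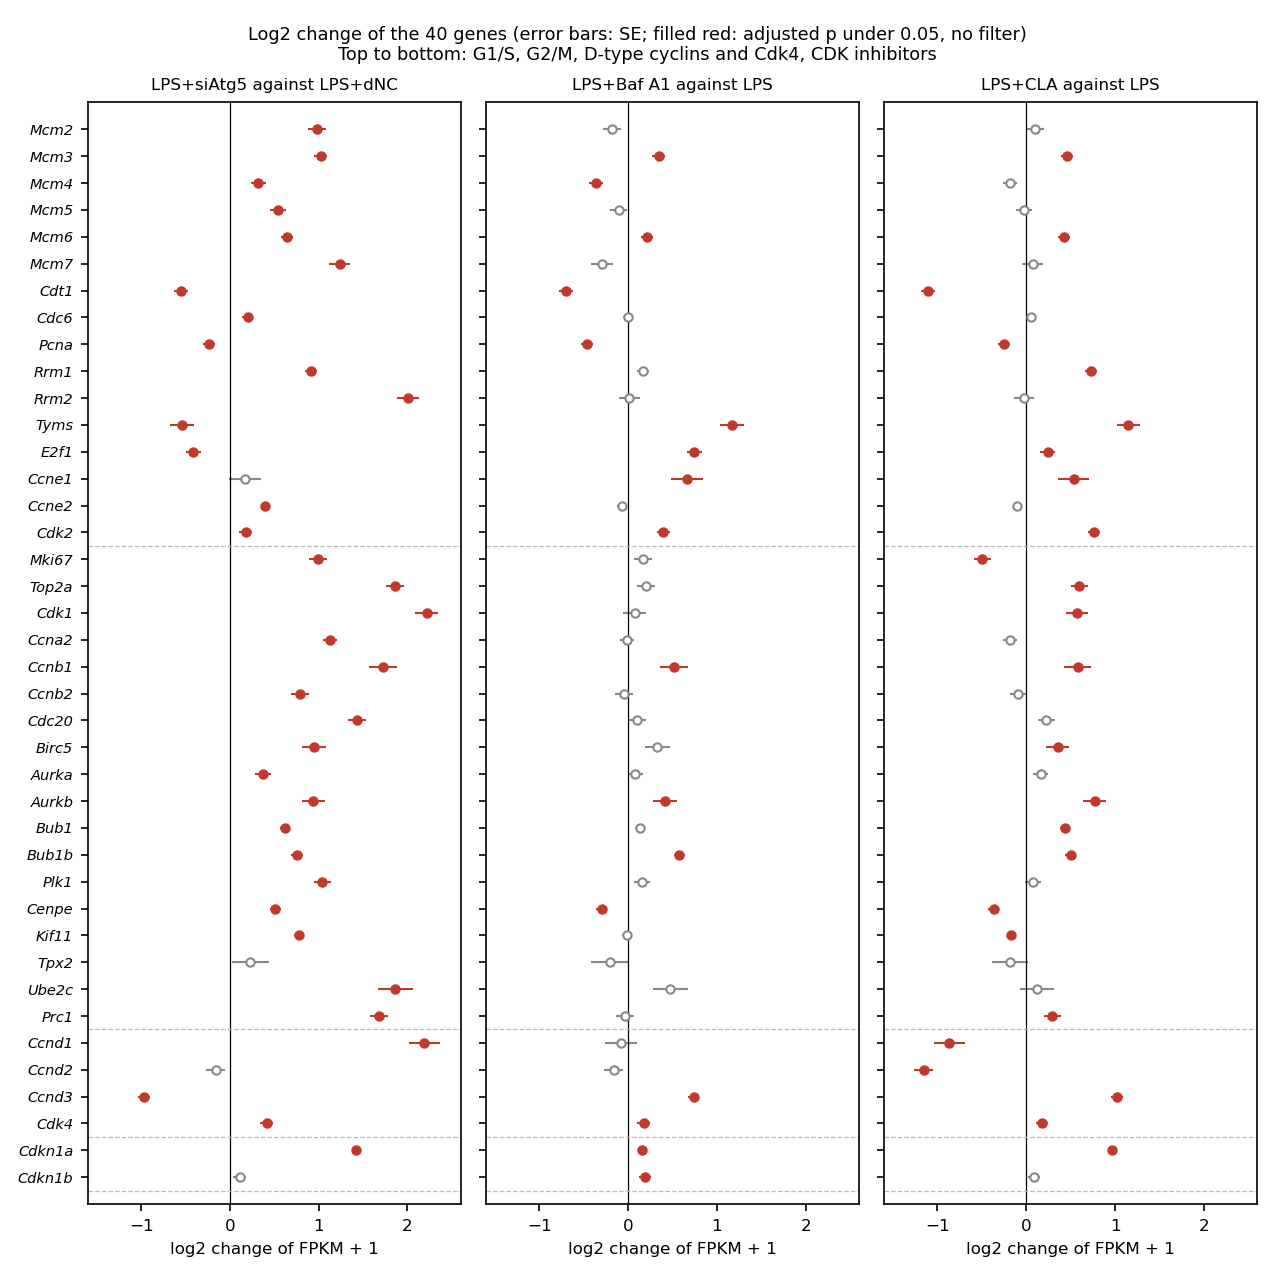
Change of log2(FPKM + 1) for all 40 genes (rows) in the 3 comparisons of the design text (panels), from the fit with no filter; points are estimates, bars standard errors, and filled red points have a limma adjusted p under 0.05. In LPS+siAtg5 against LPS+dNC 17 of 18 G2/M genes were called higher, although quantile normalization left 7 of 15 past the filter.

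The effects of Baf A1 and of the Atg5 siRNA, each against its own control, were tested against each other. With no filter 3 of the 40 genes had a higher and 30 a lower effect of Baf A1, beside 16.1% and 47.7% of all genes. Past the filter, which 7 genes met only through LPS+siAtg5, these were 3 and 25 of 35, beside 20.4% and 52.3% of all genes, and the shift of the LPS+siAtg5 libraries enters this difference, at -0.30 over all genes. Median-of-ratios scaling gave 6 and 20, and quantile normalization 8 and 15. For Top2a the log2 change was 0.21 with Baf A1 and 1.86 with the Atg5 siRNA, a difference of -1.65 ± 0.15 (SE, limma adjusted p = 1.19e-09). For Cdk1 these were 0.07 and 2.22, with a difference of -2.15 ± 0.18 (SE, limma adjusted p = 5.76e-10). Tyms and E2f1 differed the other way, by 1.71 and 1.16, with rises under Baf A1 and falls under the Atg5 siRNA. Bub1b, at 0.58 with Baf A1 and 0.75 with the Atg5 siRNA, and Cdt1, at -0.70 and -0.55, did not pass this test of the difference.

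CLA and Baf A1 were compared directly, at the doses of 50 nM and 10 nM used. In LPS+CLA against LPS+Baf A1 13 of the 35 genes were called higher and 6 lower, beside 35.4% and 19.0% of all genes, and median-of-ratios scaling gave 11 and 8. Rrm1 (0.56), Cdk1 (0.50), Top2a (0.39) and Cdk2 (0.37) were higher with CLA, and Mki67 (-0.66), E2f1 (-0.50) and Cdt1 (-0.41) were lower. Mki67 averaged 0.622 ± 0.067 FPKM in LPS+CLA and 1.58 ± 0.209 FPKM in LPS+Baf A1 libraries (SD, n = 6 and n = 5). Tyms, at -0.02 ± 0.11 (SE), and Bub1b, at -0.08 ± 0.06, did not pass.

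The D-type cyclins moved apart from each other. Ccnd1 had 24.11, 27.82, 24.17, 27.54 and 22.31 FPKM in LPS+siAtg5 libraries, against 6.31, 3.65 and 4.5 FPKM in LPS+dNC libraries. Ccnd3 had 40.16, 44.88, 38.38, 39.35 and 39.47 FPKM with the Atg5 siRNA, against 84.46, 76.17 and 79.11 FPKM with dNC. Cyclin D1 was thus higher and cyclin D3 lower with the Atg5 siRNA, with no overlap for either. The log2 changes were 2.19 ± 0.17 for Ccnd1 and -0.97 ± 0.07 for Ccnd3 (SE, limma adjusted p = 1.04e-10 and 7.37e-12), or 1.85 and -1.30 relative to the median shift of all genes. Ccnd2 had 23.39, 25.54, 24.44, 25.83 and 23.51 FPKM in LPS+siAtg5 libraries and 36.42, 25.09 and 22.72 FPKM in LPS+dNC libraries. It was not called at -0.16, and turned to 0.04 without LPS+dNC replicate 1.

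With Baf A1, Ccnd3 had 33.64, 34.4, 32.8, 36.12 and 33.79 FPKM, against 19.09, 20.32 and 20.85 FPKM in LPS libraries, a change of 0.74 ± 0.07 on the log2 scale (SE, limma adjusted p = 3.29e-09). Ccnd1 had 9.44, 9.88, 12.39, 11.46 and 10.71 FPKM in LPS+Baf A1 and 10.99, 11.46 and 11.76 FPKM in LPS libraries. Ccnd2 had 10.84, 8.92, 11.29, 11.21 and 8.82 FPKM in LPS+Baf A1 and 11.57, 12.13 and 10.82 FPKM in LPS libraries. Neither Ccnd1 (-0.08) nor Ccnd2 (-0.16) passed, and both had overlapping groups. With CLA, Ccnd1 ranged from 2.95 to 7.0 FPKM with a median of 6.55, Ccnd2 from 4.14 to 5.14 FPKM with a median of 4.58, and Ccnd3 from 39.31 to 50.52 FPKM with a median of 40.5. All 6 CLA libraries lay below the LPS libraries for Ccnd1 and Ccnd2 and above them for Ccnd3. The log2 changes were -0.86 for Ccnd1, -1.16 for Ccnd2 and 1.02 for Ccnd3 (limma adjusted p = 0.000108, 1.9e-09 and 4.39e-12). In LPS+dNC against LPS, Ccnd1 was lower (-1.12) while Ccnd2 (1.19) and Ccnd3 (1.94) were higher.

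Cdk4 stood between 29.7 and 45.38 FPKM in all libraries but its groups differed little. It had 40.27, 42.26, 40.55, 45.38 and 42.0 FPKM in LPS+siAtg5 and 31.52, 32.93 and 29.7 FPKM in LPS+dNC libraries, without overlap. The log2 change of 0.41 kept its direction but not its call, at 0.10, under median-of-ratios scaling. In LPS+Baf A1 libraries Cdk4 had 38.22, 38.44, 35.03, 37.27 and 35.41 FPKM, with CLA 30.25 to 40.2 FPKM and a median of 38.3, and with LPS alone 31.85, 31.93 and 33.8 FPKM. Both compounds gave a log2 change of 0.18 that was called (limma adjusted p = 0.0335 for Baf A1 and 0.0209 for CLA) and that missed the threshold without LPS replicate 1 or 2, and for Baf A1 also without LPS+Baf A1 replicate 1, 2 or 4.

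Cdkn1a had the highest level of the 40 genes. It had 516.0, 494.01, 526.1, 501.01 and 518.03 FPKM in LPS+siAtg5 libraries, against 177.9, 189.71 and 205.17 FPKM in LPS+dNC libraries. With CLA it ranged from 323.53 to 333.83 FPKM with a median of 326, with Baf A1 it had 185.28, 186.49, 184.65, 188.48 and 184.87 FPKM, and with LPS alone 171.85, 159.43 and 170.21 FPKM. Every group given an siRNA against Atg5, CLA or Baf A1 was above its control without overlap, by little for Baf A1. The log2 changes were 1.42 ± 0.04 with the Atg5 siRNA, 0.96 ± 0.04 with CLA and 0.15 ± 0.04 with Baf A1 (SE, limma adjusted p = 1.72e-18, 2.53e-15 and 0.0024), and the last lost its call, at 0.09, under median-of-ratios scaling. LPS+siAtg5 libraries thus held the highest level of this inhibitor and of Top2a, Ccnb1 and Rrm2 together.

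Cdkn1b had 13.46, 13.44, 12.59, 13.9 and 12.83 FPKM in LPS+siAtg5 and 11.23, 12.59 and 12.85 FPKM in LPS+dNC libraries, and did not pass at 0.11, which turned to -0.19 under both scalings. In LPS+Baf A1 libraries it had 11.99, 10.97, 10.03, 10.11 and 10.57 FPKM, with CLA 8.68 to 10.93 FPKM and a median of 10.2, and with LPS alone 9.73, 8.73 and 9.4 FPKM. The Baf A1 change of 0.19 was called (limma adjusted p = 0.0244) but not without LPS replicate 2 or LPS+Baf A1 replicate 1, and CLA gave 0.08, not called.

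**Figure D5:**
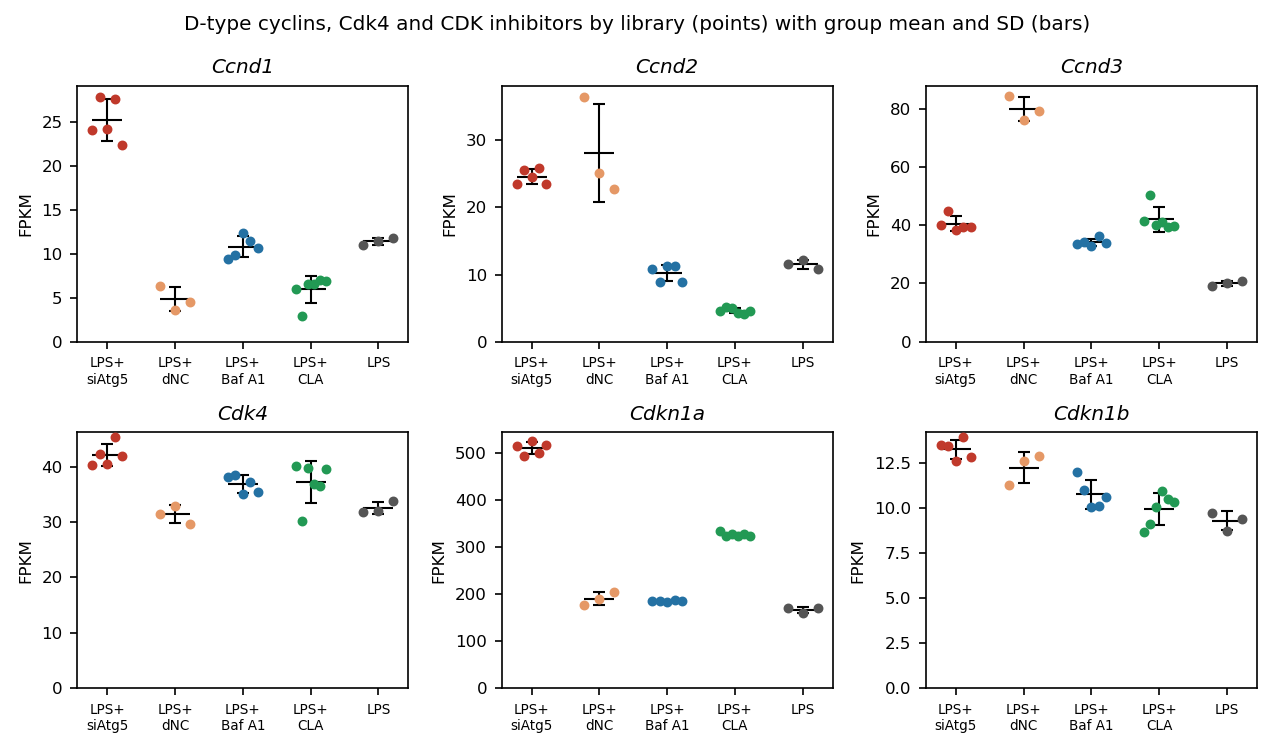
FPKM (vertical axes, each from 0) of the 3 D-type cyclins, Cdk4 and the 2 CDK inhibitors in every library, by group; points are libraries, bars the group mean and SD (n = 5, 3, 5, 6 and 3). Ccnd1 and Cdkn1a were highest in LPS+siAtg5 libraries and Ccnd3 in LPS+dNC libraries.

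The wider cell cycle was followed in 131 further genes on 3 lists. With no filter, 43 of 49 other G2/M genes were called higher and 4 lower in LPS+siAtg5 against LPS+dNC, and 32 of 50 other G1/S genes higher and 8 lower, beside 54.8% higher and 18.3% lower of all genes. Past the filter, quantile normalization gave 12 higher and 8 lower of 31 other G2/M genes and reversed the balance of the other G1/S genes, with 13 higher and 23 lower of 43. Ckap2, a spindle-associated protein, averaged 2.37 ± 0.188 FPKM in LPS+siAtg5 libraries and 0.143 ± 0.0666 FPKM in LPS+dNC libraries (SD, n = 5 and n = 3), and Gtse1, a mitotic regulator of microtubules, 4.53 ± 0.451 FPKM in LPS+siAtg5 libraries and 0.497 ± 0.0321 FPKM in LPS+dNC libraries. They changed by 1.56 and 1.88 on the log2 scale. Pttg1 (-1.15), which encodes securin, and Cks2 (-1.43), a small CDK-binding protein, fell. Of the other G1/S genes Dut, the enzyme that removes dUTP, changed by 1.62 and Rfc2, a clamp loader subunit, by -1.45. Ccng1 (1.85), a cyclin induced by p53, and Tfdp2 (1.48), a partner of E2F factors, were the regulators named as rising, and Rbl1 (-1.48) and Gadd45b (-1.45) those named as falling.

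In LPS+Baf A1 against LPS, 10 of 49 other G2/M genes were called higher and 6 lower with no filter, and 9 of 50 other G1/S genes higher and 11 lower, beside 23.4% and 19.1% of all genes, so that neither list exceeded the share of all genes called higher. Cks2 (1.49) and Incenp (0.53), which anchors Aurora B, rose, and the condensin subunits Smc2 (-0.60) and Smc4 (-0.37) fell. Gmnn, geminin, the protein inhibitor of Cdt1, was called higher by 0.79 with Baf A1, and by 0.85 in LPS+siAtg5 against LPS+dNC and 1.01 in LPS+CLA against LPS. Orc5 (0.42), of the origin recognition complex, rose, and Pola1 (-0.41), of DNA polymerase alpha, fell. Rbl1, the retinoblastoma relative p107, fell by 0.90, and its relative Rbl2 rose by 0.48. In LPS+CLA against LPS, 14 of 49 other G2/M genes were called higher and 5 lower with no filter, and 20 of 50 other G1/S genes higher and 7 lower, beside 29.1% and 17.5% of all genes, a share the other G2/M genes did not exceed. Cks2 (1.73), Incenp (0.72), Orc5 (0.88) and Rpa1 (0.50) rose, and E2f8 (-0.26), Tacc3 (-0.43) and Pttg1 (-0.31) fell. Myc, a driver of cell growth, averaged 9.53 ± 1.59 FPKM in LPS+CLA and 1.19 ± 0.104 FPKM in LPS libraries (SD, n = 6 and n = 3), and Csf1, the growth factor of microglia, averaged 2.3 ± 0.373 FPKM in LPS+CLA and 8.01 ± 0.869 FPKM in LPS libraries.

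Some of these genes share transcribed sequence with other genes, so that their reads could be split or merged. At 97% identity over at least 75 bases, 81.2% of the longest Mcm7 transcript matched other genes, mainly Gm5487 and Ap4m1, as did 51.9% for Ccnb1 and 51.4% for Pcna, mainly through pseudogenes. For Cdk4 (31.2%), Prc1 (30.1%), Ccnd1 (29.5%) and Ube2c (25.3%) the other gene lay on the opposite strand or was a partial copy, and the sources used here do not say whether the libraries kept the strand.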

How the data were processed

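Poly(A) RNA of 22 libraries was sequenced, and the authors deposited FPKM values per gene symbol. The submitters' processing notes name CASAVA 1.7, fastp 0.18.0, Bowtie2 2.2.8, HISAT2 and StringTie 1.3.1. Which step each served, the build and the annotation were not given in the sources used here. Per the file headers the values of the other groups are FPKM; the columns of LPS+dNC carry no unit and were read as FPKM from their values. FPKM keeps no depth, so no counting interval was given, and strong transcripts lower all others in a library.

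From these values log2(FPKM + 1) was fitted with limma 3.58.1 (R 4.3.3) in 1 model over 22 libraries with 5 group means (17 residual degrees of freedom, trend and robust empirical Bayes). P-values were adjusted by Benjamini-Hochberg over the 11070 genes that reached 1 FPKM in 3 or more libraries, or over 15534 genes with no filter, and called under 0.05. Fold changes on this scale understate low genes. The fit was tested on simulated data.

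The 40 genes and all lists were chosen with earlier results of these data known. Values of every library (for LPS+CLA, with 6 libraries, the lowest, median and highest) were given for the 3 called rises and the 3 called falls with the smallest adjusted p in the G1/S and G2/M lists of each of the 3 comparisons of the design text, for Mki67, Top2a, Cdk1, Pcna, Mcm2, Cdk4, the D-type cyclins and the CDK inhibitors always, and for a few further genes chosen after their values were seen (Ccnb1 and Tpx2 with the Atg5 siRNA, Rrm1 with Baf A1). Of the 131 other cell cycle genes, up to 2 per list and direction were named, and 1 that the rule picks is not reported here. Alternatives were a pseudocount of 0.1, no filter or 5 FPKM, median-of-ratios scaling, quantile normalization, array weights, only the groups compared, a replicate block and left-out libraries. Correlations of deviations between libraries of equal replicate number were -0.113 to 0.0906, so the numbers were not taken to pair libraries. Promoters came from RefSeq (GRCm38.p6), and shared sequence from GENCODE transcripts.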

Additional observations from a re-analysis of the deposited data

Results flagged for a closer look

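Each of the 40 genes was checked in each group of 5 or 6 libraries, 120 sets in all. In 9 sets 1 library stood apart, judged by its gap to the next library relative to the range of the set. Such a gap can be small in FPKM. Chance alone flags about 1 in 20 sets, and sets from the same libraries are not independent. LPS+CLA replicate 2 accounted for 4 of the 9. It had the lowest Mcm3 (8.76 FPKM), Ccnd1 (2.95 FPKM) and Cdk4 (30.25 FPKM) and the highest Ccnd3 (50.52 FPKM) of the LPS+CLA libraries. Among LPS+siAtg5 libraries, Pcna was lowest in replicate 5 (72.72 FPKM), Top2a highest in replicate 4 (4.84 FPKM), Ccnd3 highest in replicate 2 (44.88 FPKM), and in replicate 1 Aurka was highest (2.21 FPKM) and Cenpe lowest (0.73 FPKM).

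For 5 genes the effects of Baf A1 and of the Atg5 siRNA, each against its own control, were called in opposite directions, and the difference itself was called. Tyms (1.71), E2f1 (1.16) and Ccnd3 (1.7) had the higher effect with Baf A1 on the log2 scale, and Mcm4 (-0.68) and Mcm7 (-1.53) the lower one. The Baf A1 effect on Mcm7 was not called with no filter (limma adjusted p = 0.0579). Over the 35 genes past the filter, which 7 met only through LPS+siAtg5, 25 had a lower and 3 a higher effect with Baf A1 than with the Atg5 siRNA. Of all 11070 genes 52.3% had a lower and 20.4% a higher effect, with a median difference of -0.30, so the overall shift of the LPS+siAtg5 libraries enters these counts.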

How the results depend on the processing

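Over 69 results for single genes, 1077 of 1166 recomputed values kept their direction and side of the threshold, 43 lost the call, 21 gained it and 25 reversed. Scaling mattered most for LPS+siAtg5, where the cause of the overall shift was not tested, and low FPKM of G2/M genes limited what the pseudocount and filter left.

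For LPS+siAtg5 against LPS+dNC, quantile normalization gave 16 genes higher and 10 lower, with medians of -0.14 (G1/S) and 0.21 (G2/M), and median-of-ratios scaling medians of 0.18 and 0.89. The medians over all genes past the filter were -0.01 with quantile normalization and 0.06 with median-of-ratios scaling. In this section the 5 FPKM filter left Cdk1 as the only G2/M gene. Each G2/M median under that filter is therefore the change of Cdk1. The 5 FPKM filter gave 10 higher with medians of 0.25 (G1/S) and 2.22 (Cdk1), and the 0.1 pseudocount medians of 0.54 and 2.22. For LPS+siAtg5 against LPS, quantile normalization gave 19 higher and 5 lower with medians of -0.000715 and 0.30, median-of-ratios scaling 2 lower with 0.22 and 0.80, the pseudocount 0.63 and 1.97, and the 5 FPKM filter 15 higher with 0.83 (G2/M). For the Baf A1 effect minus the siAtg5 effect, median-of-ratios scaling gave 6 higher with medians of -0.31 and -0.73, quantile normalization 8 higher and 15 lower with -0.20 and -0.0463, the 5 FPKM filter 10 lower with -0.33 and -2.15, no filter -0.45 (G1/S), the pseudocount -1.88 (G2/M), and leaving out LPS replicate 3, LPS+dNC replicate 1 and LPS+CLA replicate 2 together -0.99 (G2/M).

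For LPS+Baf A1 against LPS, the 5 FPKM filter gave 10 higher and a G1/S median of 0.19, and the pseudocount a G2/M median of 0.30. For LPS+CLA against LPS, the 5 FPKM filter gave 10 higher with medians of 0.33 (G1/S) and 0.57 (G2/M). The G1/S median was 0.0871 with no filter, 0.0589 with median-of-ratios scaling and 0.0666 with quantile normalization, and the G2/M median 0.51 with the pseudocount and 0.57 with only the groups compared. For LPS+CLA against LPS+Baf A1 the 5 FPKM filter gave a G2/M median of 0.50. For LPS+dNC against LPS it gave 4 lower and a G2/M median of -1.38, against -0.50 with the pseudocount and 0.13 with only the groups compared.

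Leaving out 1 library at a time gave 25 to 28 higher and 5 to 6 lower for LPS+siAtg5 against LPS+dNC, 11 to 16 higher and 3 to 4 lower for LPS+Baf A1 against LPS, 14 to 18 higher and 5 to 6 lower for LPS+CLA against LPS, and 1 to 2 lower for LPS+siAtg5 against LPS, with 2 without LPS replicate 2. The G2/M median of the difference of effects was -1.02 to -0.83, the lowest without LPS replicate 3.

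Of these single-gene results the following reversed. In LPS+siAtg5 against LPS+dNC, Cdk2 (-0.11) and Cdkn1b (-0.19) turned with median-of-ratios scaling, and Cdk2 (-0.18), Mcm4 (-0.17), Bub1b (-0.0371) and Cdkn1b (-0.19) with quantile normalization. Among the other genes quantile normalization turned Aurka from 0.37, called, to -0.41 and Ccne1 from 0.17 to -0.49. Ccnd2 turned without LPS+dNC replicate 1 (0.0370), also when left out with the other 2 libraries, and ran from -0.29 to 0.0370 over left-out libraries. In LPS+Baf A1 against LPS, Rrm2 turned with median-of-ratios scaling (-0.00724) and ran from -0.0382 to 0.0518 over left-out libraries. Mki67 turned with array weights (-0.00727) and without LPS replicate 3 or all 3 libraries (-0.0253 in both), and ran from -0.0253 to 0.28. Cdk1 turned without LPS replicate 1 (-0.0352) or 2 (-0.0335), and ran from -0.0352 to 0.29. In LPS+CLA against LPS, Mcm2 (-0.00191 and -0.00788) and Cdkn1b (-0.0463 and -0.0391) turned with median-of-ratios scaling and with quantile normalization. Rrm2 turned with quantile normalization (0.0333), array weights (0.0612) and without all 3 libraries (0.0799), and ran from -0.0788 to 0.0588 over left-out libraries, the highest without LPS+CLA replicate 2.

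With the replicate number as a block, 11 genes were higher with Baf A1 in place of 16, 16 higher and 6 lower with CLA in place of 18 and 5, and 26 higher and 5 lower in LPS+siAtg5 against LPS+dNC, as without the block. Of the single-gene results 64 kept their call under the block, 4 lost it and 1 gained it.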
